A study of Rattus norvegicus with 24 samples.

Results

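The sarcomeric myosin heavy chains of rat quadriceps were followed in 24 libraries. They were chosen by name: Myh1, Myh2 and Myh4 (fast adult chains), Myh7 (slow chain), Myh3 and Myh8 (embryonic and neonatal chains), Myh6 (cardiac alpha chain) and Myh7b (slow tonic chain). Of these 8 genes, 6 had a row of their name among the 21067 rows of the deposited table, and all 6 were among the 14772 rows with a mean of at least 0.1 FPKM (a level per transcript length and sequencing depth). Myh2 and Myh4 had no row.

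Male and female Sprague Dawley rats, 6 weeks old when obtained, were kept untrained (control) or trained on a treadmill for 7 weeks at 20 minutes a day and then run to exhaustion at 35 m per min. Of the trained rats, a treadmill group had no other treatment. The catgut 1 group had collagen thread embedded at the acupoints Bai Hui, Han Gou, Qian Shen, Qiang Feng, Xie Qi and Yang Wa before training, and the catgut 2 group at these points and at Fei Shu. Each group held 6 libraries of poly(A) RNA from quadriceps, 1 library a rat. The part of the quadriceps that was sampled is not given in the sources used here. Several of the points lie in the hindlimb. No group had thread embedded without training, and no sham embedding is described, so thread, needle and ether anaesthesia cannot be told apart. Every trained group was also run to exhaustion, so training and that run cannot be told apart.

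Myosin heavy chain is the motor of the thick filament, and each chain sets how fast a muscle fibre can shorten and how much ATP it uses. Adult rat limb fibres carry type I (Myh7), IIa (Myh2), IIx (Myh1) or IIb (Myh4) chain, in order of rising speed, and many fibres carry mixtures. Embryonic and neonatal chains are replaced after birth and return for a time in regenerating fibres. Myh6, Myh7 and Myh7b each hold a microRNA of the same family in an intron, and these microRNAs are known to favour the slow programme.

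The table's Myh1 row may hold more than 1 gene. It (ENSRNOG00000049695, chromosome 10, plus strand, chr10:53713938-53848347) spanned 134.4 kb and listed 6 transcripts, whereas the Myh3 row (ENSRNOG00000046276, chr10:53621375-53645194) spanned 23.8 kb with 1 transcript. In the RefSeq order of the rat genome, Myh2 and Myh4 lie on either side of Myh1, between Myh3 and Myh8, and neither was listed. The number of counts that gave 1 FPKM in the Myh1 row was 3.06 times that of Myh7 (median over 24 libraries). It was 1.02 times for Myh3 and Myh6 and 1.03 times for Myh7b. The Myh8 row was also unusual, at 0.75 times, with a span of 99.7 kb but 1 transcript, so a long span also occurred without several transcripts. The Myh1 row was read here as fast adult myosin (Myh2, Myh1 and Myh4 pooled), which the table does not state. On that reading its FPKM is a level per about 3 lengths. How the fast chains shifted among themselves cannot be seen in it.

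The Myh8 row (ENSRNOG00000050042, chr10:53818818-53918524) overlapped the Myh1 row by 29.5 kb. Myh7 (ENSRNOG00000016983, chr15:33634422-33656089) and Myh6 (ENSRNOG00000025757, chr15:33605654-33629699) are neighbours on the minus strand, and Myh7b (ENSRNOG00000018997, chr3:151126591-151150344) lies on the plus strand. The genome build of these coordinates was not given in the sources used here. Myh6 and Myh7, like the chains of the chromosome 10 cluster, are near-identical over long stretches, so a part of each row's reads could come from its neighbour. A row on the other strand (AC130940) overlapped the end of Myh7 by 3.51 kb but reached at most 3 counts, and the Mir208b row inside Myh7 also reached at most 3.

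The sequence upstream of the 3 fast genes is given here to show the longest stretch that they share. The 250 bases before each RefSeq start (build GRCr8, plus strand, Myh2 chr10:52355489-52355738, Myh1 chr10:52384662-52384911, Myh4 chr10:52421898-52422147) shared 1 run of 20 bases, in capitals, the longest run found in all 3.
Myh2: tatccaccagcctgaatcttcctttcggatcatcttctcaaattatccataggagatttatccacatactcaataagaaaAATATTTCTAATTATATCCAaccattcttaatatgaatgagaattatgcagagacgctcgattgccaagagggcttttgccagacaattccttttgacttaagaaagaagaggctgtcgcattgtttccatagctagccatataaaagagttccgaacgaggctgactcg
Myh1: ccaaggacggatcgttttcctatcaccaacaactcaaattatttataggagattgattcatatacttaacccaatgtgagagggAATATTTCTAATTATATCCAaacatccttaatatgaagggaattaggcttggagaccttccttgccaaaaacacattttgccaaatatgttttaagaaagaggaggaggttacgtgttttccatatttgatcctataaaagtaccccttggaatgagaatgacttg
Myh4: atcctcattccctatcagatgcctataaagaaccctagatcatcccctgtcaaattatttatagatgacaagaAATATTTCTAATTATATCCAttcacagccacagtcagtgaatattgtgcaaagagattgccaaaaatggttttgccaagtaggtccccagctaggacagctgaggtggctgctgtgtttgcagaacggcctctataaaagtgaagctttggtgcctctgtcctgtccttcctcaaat
The run began 170, 166 and 177 bases before the start of Myh2, Myh1 and Myh4. On either strand it was in 5 of 33469 RefSeq windows of this length (0.0149%). The windows of Myh2, Myh1 and Myh4 hold it by construction, since it was taken from them. The other 2 are start sites of LOC102555216, a long non-coding RNA on the opposite strand whose start lies beside that of Myh4. A TATAAA lay 30, 33 and 45 bases before the start, and 12.9% of all windows held TATAAA on either strand.

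The 3 intronic microRNAs are shown because their host genes moved together in these libraries. Their mature RefSeq sequences, with the seed (bases 2 to 8) in capitals, are as follows.
rno-miR-208a-3p (in Myh6): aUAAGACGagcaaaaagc
rno-miR-208b-3p (in Myh7): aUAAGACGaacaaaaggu
rno-miR-499-5p (in Myh7b): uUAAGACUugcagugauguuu
The seeds of miR-208a-3p and miR-208b-3p are the same in all 7 bases, and that of miR-499-5p shares 6 of 7, with G8U counted from the 5′ end of miR-208b-3p. Mature microRNAs were not measured in these poly(A) libraries.

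The libraries held between 45945938 and 78278080 counts. All 5 skeletal muscle markers with a row were high in every library (Acta1 22811 to 35310 FPKM, Mylpf 14000 to 22862 FPKM), although the extraction text in the labels speaks of adipose tissue. Of 5 heart markers with a row, Myl7, Tnni3 and Ryr2 reached at most 0.0483, 0.0958 and 0.0159 FPKM, while Tnnt2 reached 4.56 FPKM and Actc1, which immature skeletal muscle also makes, 2.31 to 158 FPKM; the summed level of the list was 5.30 to 58.0 FPKM in control and 7.23 to 160 FPKM in catgut 2. Of 4 adipocyte markers, all were listed, and their summed level ranged from 3.12 to 87.6 FPKM. Of 8 liver markers, Alb (serum albumin) was above 100 FPKM in control library 2 (135 FPKM) and treadmill library 3 (226 FPKM), at most 14.3 FPKM in the others. The summed level of the 8 reached 207 FPKM in control, 323 FPKM in treadmill, 13.9 FPKM in catgut 1 and 18.8 FPKM in catgut 2. Eif2s3y, a Y-linked gene, was above 1 FPKM in 3 libraries of each of the control, treadmill and catgut 1 groups and in 2 of the 6 catgut 2 libraries, whereas equal numbers of both sexes are stated for each group. As these are whole-tissue samples, fewer fibres of a type and less RNA per fibre cannot be told apart.

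Fast adult myosin was by far the most abundant member in every rat. The Myh1 row took a median 5.66% of all counts (3.16% to 7.68%), and counting error on such a share was at most 0.0267 percentage points wide (95% Wilson interval, counting error only). It had a level of 1689 to 4121 FPKM over the 24 libraries. Per length, it was above Myh7 in 24 of 24 libraries. The levels below it did not keep 1 order: Myh7 was above Myh6 in 24 of 24 libraries and Myh8 was above Myh3 in 24 of 24, but Myh7 was above Myh8 in only 18 of 24 and Myh3 was above Myh6 in 11 of 24.

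Slow myosin varied more between rats of a group than between groups. Myh7 was 0.0984, 11.99 and 144 FPKM (lowest, median and highest) in control, 0.121, 67.8 and 143 FPKM in treadmill, 0.632, 131 and 308 FPKM in catgut 1, and 25.5, 110 and 417 FPKM in catgut 2. The ranges of all 4 groups overlapped, and in control, treadmill and catgut 1 a rat with almost no Myh7 stood beside a rat with over 100 FPKM. The highest library held 4240 times the FPKM of the lowest, which still had 38 counts. Of the variance of log2(FPKM + 1) of Myh7, 80.3% lay within groups, beside 62.2% (the Myh1 row) to 82.7% (Myh7b) for the other members. With 6 libraries a group, most of the variance lies within groups even where groups do not differ. This share therefore does not set slow myosin apart. Myh7 was under 1 FPKM in 3 libraries, 1 each of control, treadmill and catgut 1, and over 100 FPKM in 11, of which 1 was control, 3 treadmill, 3 catgut 1 and 4 catgut 2.

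Myh6 followed Myh7 at a lower level. It was 0.0040, 0.682 and 11.8 FPKM (lowest, median and highest) in control, 0.0075, 4.86 and 16.3 FPKM in treadmill, 0.0708, 8.67 and 25.6 FPKM in catgut 1, and 2.24, 8.13 and 34.1 FPKM in catgut 2. All groups overlapped, and 2 libraries (control 4 and treadmill 2) had no more than 12 counts, the level taken here as the limit of detection. In the 13 libraries with Myh7 over 50 FPKM, Myh6 was 4.90% to 11.7% of the Myh7 level.

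Myh7b was low and had a floor. Its FPKM was 0.369, 0.594 and 2.13 in control, 0.486, 0.977 and 2.85 in treadmill, 0.296, 1.49 and 4.39 in catgut 1, and 0.875, 1.92 and 3.08 in catgut 2 (lowest, median and highest). In the 2 libraries with least Myh7 it was above Myh7 itself. The plot of the slow members shows, within each group, the same library lowest and the same library highest for Myh7 and Myh6. Myh7b was lowest in another library in control, catgut 1 and catgut 2, and highest in another library in catgut 2.

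**Figure D1:**
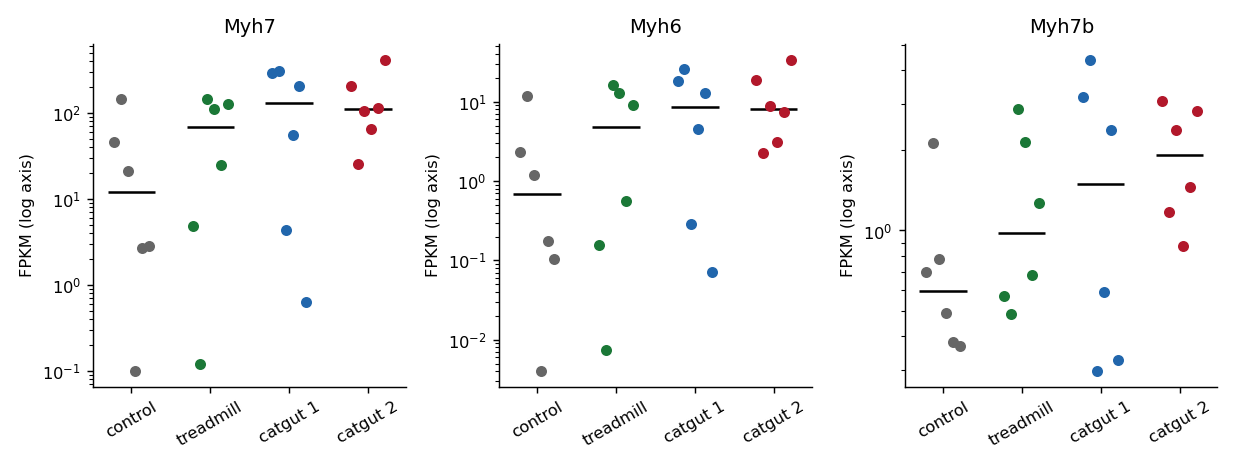
FPKM (log axis) of Myh7, Myh6 and Myh7b in the 6 libraries of each group, in order of replicate number from left to right; black lines are medians. Myh7 reaches from about 0.1 FPKM to over 100 FPKM within control and within treadmill, and its lowest catgut 2 library is at 25.5 FPKM.

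In the control group, the 3 libraries with Eif2s3y above 1 FPKM had 0.0984, 2.71 and 2.83 FPKM of Myh7 and the 3 without had 21.2, 45.7 and 144 FPKM. In the other groups the libraries with and without Eif2s3y overlapped: treadmill libraries with it held 24.8 to 128 FPKM and those without 0.121 to 143 FPKM, catgut 1 libraries with it held 0.632, 55.4 and 206 FPKM and those without 4.37, 294 and 308 FPKM, and the 2 such libraries of catgut 2 (113 and 205 FPKM) lay inside the range of the other 4. These libraries were sorted by a measured transcript and not by a label, and the difference was not tested.

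No slow member passed the threshold in any comparison of the groups. Against control, treadmill libraries gave a log2 fold change of 0.98 for Myh7 (SE 1.43, 95% interval -2.11 to 4.08, edgeR quasi-likelihood test, adjusted p = 0.865), 1.38 for Myh6 (SE 1.51, adjusted p = 0.808) and 0.77 for Myh7b (SE 0.56, adjusted p = 0.695). The interval for Myh7 reaches from 0.231-fold to 16.9-fold, so neither a large rise nor a large fall could be told from no change with 6 rats a group. Of the 12 libraries left out in turn, control library 2, one of the 2 with Alb above 100 FPKM, moved these values most. Without it the Myh7 value was 2.31, the Myh6 value 3.17 and the Myh7b value 1.37 (adjusted p = 0.605, 0.504 and 0.414). In the control group its Myh7 (144 FPKM), Myh6 and Myh7b were the highest. Without both libraries with Alb above 100 FPKM the Myh7 value was 1.98 (adjusted p = 0.782). With a Y-linked covariate the Myh7 and Myh6 values were 2.73 and 3.17 (adjusted p = 0.704 and 0.659).

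The embedding comparisons were as wide. For Myh7 the log2 value was 0.99 (SE 1.34, adjusted p = 0.976) in catgut 1 against treadmill, 1.13 (SE 1.09, adjusted p = 0.800) in catgut 2 against treadmill and 0.15 (SE 1.06, adjusted p = 1) in catgut 2 against catgut 1. The last of these turned to -0.46 without catgut 2 library 6, the library with the highest Myh7 of all (417 FPKM), and the value against treadmill fell to 0.52. With the 3 trained groups averaged against control, the log2 fold changes were 1.69 for Myh7 (SE 1.205, adjusted p = 0.554), 1.87 for Myh6 (SE 1.24, adjusted p = 0.516) and 1.09 for Myh7b (SE 0.56, adjusted p = 0.385). Without control library 2 they were 3.02, 3.66 and 1.69 (adjusted p = 0.308, 0.240 and 0.190). Catgut 1 and catgut 2 share the treadmill libraries as their comparator, so their values against treadmill are not independent.

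The share of Myh7 in adult myosin, taken as the FPKM of Myh7 over the sum of Myh7 and the Myh1 row, was 1.14% ± 1.82 (SD, n = 6) in control, 2.56% ± 2.55 in treadmill, 5.24% ± 5.17 in catgut 1 and 6.30% ± 5.75 in catgut 2. In each of the 4 comparisons the means differed by less than the larger of the SDs of the 2 groups. The difference was 1.42 percentage points for treadmill against control, 2.68 for catgut 1 against treadmill, 3.73 for catgut 2 against treadmill and 1.05 for catgut 2 against catgut 1. Their exact two-sided permutation p was 0.312, 0.262, 0.190 and 0.745, and 0.416, 0.416, 0.416 and 0.745 after Benjamini-Hochberg adjustment over the 4 tests. If the Myh1 row pools 3 genes, as read here, its FPKM is too low for their sum. The share of counts was 0.381%, 0.864%, 1.83% and 2.22% in the same order of groups.

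Fast adult myosin was lower in trained rats by a small amount that did not pass the adjusted threshold. The Myh1 row was 2943, 3540 and 4121 FPKM (lowest, median and highest) in control, 2246, 2936 and 3182 FPKM in treadmill, 2075, 3031 and 3519 FPKM in catgut 1 and 1689, 2498 and 3275 FPKM in catgut 2. Neighbouring groups overlapped, and 3 of the 6 treadmill libraries lay below every control library. The log2 fold change of treadmill against control was -0.30 (SE 0.15, 95% interval -0.62 to 0.02, p = 0.0659, adjusted p = 0.558), and a two-sided exact permutation of the group labels gave p = 0.0216, or 0.416 adjusted over the 24 such tests of 6 members in 4 comparisons.

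In all trained rats together, the log2 fold change of the Myh1 row was -0.36 (SE 0.12, 95% interval -0.62 to -0.11, adjusted p = 0.184), which is 0.778-fold. It was negative without each library in turn (-0.40 to -0.29). The catgut groups did not differ from treadmill beyond their spread, at 0.01 (SE 0.18, interval -0.38 to 0.40) for catgut 1 and -0.21 (SE 0.15, interval -0.53 to 0.12) for catgut 2. The value of catgut 2 against catgut 1 was -0.22 (SE 0.17, adjusted p = 1). The medians of the blood and smooth muscle markers were higher in each trained group than in control, with ranges that overlapped. The summed level of the 3 blood markers with a row (of 4) had a median of 375 FPKM (233 to 433) in control, 568 FPKM (334 to 1298) in treadmill, 663 FPKM (273 to 1263) in catgut 1 and 646 FPKM (238 to 1382) in catgut 2. That of 4 smooth muscle markers was 37.0 FPKM (23.9 to 56.1), 63.8 FPKM (37.5 to 85.2), 46.6 FPKM (44.2 to 141) and 63.2 FPKM (39.7 to 82.8) in the same order. Their part in the values of the Myh1 row was not tested.

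**Figure D2:**
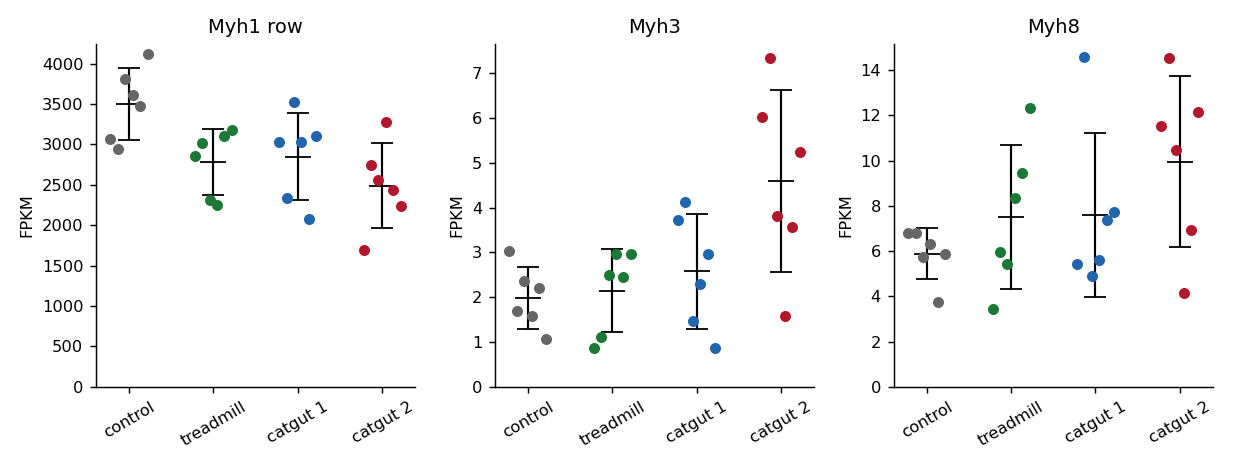
FPKM of the Myh1 row (fast adult chains), Myh3 (embryonic) and Myh8 (neonatal) in the 6 libraries of each group; points are libraries, and black bars are mean ± SD. The control libraries of the Myh1 row lie between 2943 and 4121 FPKM, and 5 of 6 catgut 2 libraries of Myh3 lie above every treadmill library.

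Embryonic myosin, Myh3, was low in all groups and highest in catgut 2. It was 1.07, 1.95 and 3.03 FPKM in control, 0.877, 2.48 and 2.97 FPKM in treadmill, 0.861, 2.63 and 4.13 FPKM in catgut 1, and 1.59, 4.52 and 7.33 FPKM in catgut 2 (lowest, median and highest). Of the catgut 2 libraries, 5 were above every treadmill library and 3 were above every catgut 1 library. Catgut 2 was above treadmill by 1.04 on the log2 scale (SE 0.41, 95% interval 0.15 to 1.92), with an adjusted p of 0.374. The exact two-sided permutation p of this comparison was 0.0346, or 0.416 adjusted over the 24 tests.

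Against catgut 1, the Myh3 value of catgut 2 was 0.83 (SE 0.41, adjusted p = 1). Treadmill against control gave 0.18 (SE 0.36, adjusted p = 0.908), and catgut 1 against treadmill 0.20 (SE 0.42, adjusted p = 0.985). None of these passed the threshold.

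The Myh8 row, which partly overlaps the Myh1 row, was taken as the neonatal chain. It was 3.76, 6.09 and 6.82 FPKM in control and 3.46, 7.16 and 12.3 FPKM in treadmill (lowest, median and highest). In catgut 1 it was 4.89, 6.49 and 14.6 FPKM, and in catgut 2 it was 4.14, 11.01 and 14.5 FPKM. On the log2 scale it differed by 0.41 (SE 0.29, adjusted p = 0.689) for treadmill against control and 0.35 (SE 0.35, adjusted p = 0.808) for catgut 2 against treadmill. The groups overlapped throughout. For all trained rats against control it was 0.52 (SE 0.27, adjusted p = 0.401).

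Over all members, none was called. In edgeR's quasi-likelihood test at an adjusted p under 0.05, 0 of 6 members were called in treadmill against control, where 0.0542% of the 14772 genes tested were called, and 0 of 6 in catgut 1 against treadmill (0.0474% of all genes), catgut 2 against treadmill (0.237%), catgut 2 against catgut 1 (0.00677%), trained against control (0.514%) and in the test of any difference among the 4 groups (0.379%). DESeq2 and limma also called 0 of 6 in each comparison they were run on.

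At an unadjusted p under 0.05 the members were 0 of 6 in treadmill against control (9.12% of all genes), 0 of 6 in catgut 1 against treadmill (6.93%), 1 of 6, Myh3, in catgut 2 against treadmill (10.7%), 0 of 6 in catgut 2 against catgut 1 (3.26%), 1 of 6, the Myh1 row, in trained against control (14.1%) and 2 of 6, Myh3 and the Myh1 row, in the test among the 4 groups (13%). In treadmill against control 5 of 6 fitted values were above 0, with a median of 0.59 beside a median of 0.00 over all genes tested. In trained against control 5 of 6 were above 0, with a median of 0.84 beside 0.00. The 5 are not separate observations, since Myh7, Myh6 and Myh7b moved together across rats.

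**Figure D3:**
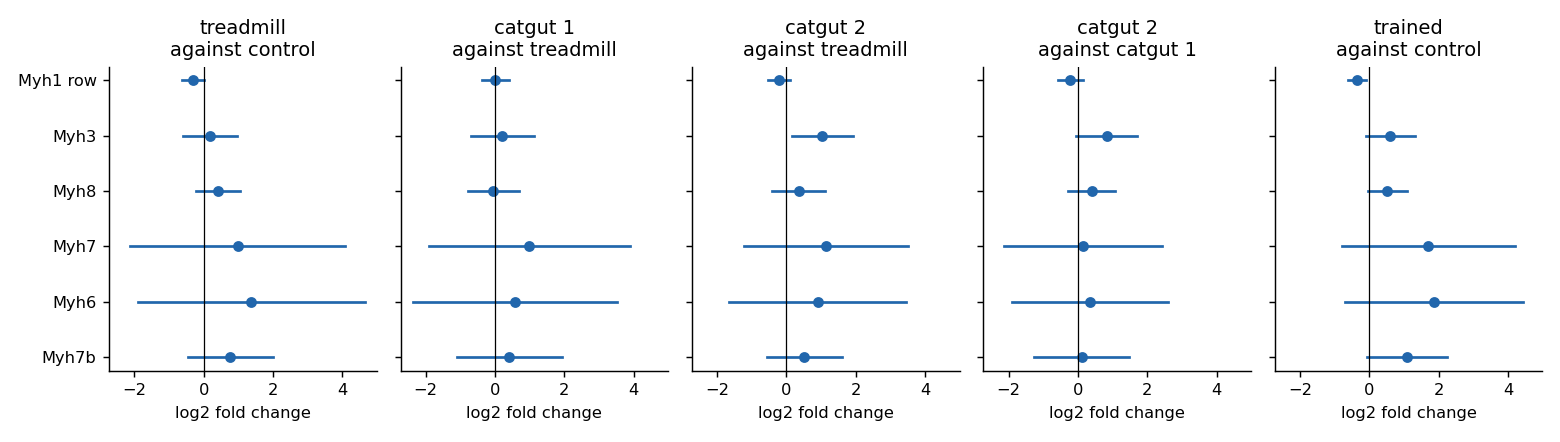
Fitted log2 fold change (points) with its 95% interval (lines) of the 6 listed members in 5 comparisons. The intervals of Myh7 and Myh6 are several log2 units wide in every comparison, and those that leave 0 out are Myh3 in catgut 2 against treadmill and the Myh1 row in trained against control.

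The slow members Myh7, Myh6 and Myh7b rose and fell together from rat to rat. Over 24 libraries, log2(FPKM + 1) of Myh7 correlated with Myh6 at r = 0.95 (rho = 0.97) and with Myh7b at r = 0.86 (rho = 0.92), and Myh6 with Myh7b at r = 0.94 (rho = 0.93). The permutation p of each was 1e-05, the smallest that 100000 resamples can give, and 3e-05 (5e-05 for rho) after adjustment over the 15 pairs of members. Without the 2 libraries farthest from the median of the first-named gene, the r were 0.96, 0.88 and 0.94. After centring each group on its mean they were 0.94, 0.83 and 0.93, and within each group of 6 Myh7 and Myh6 correlated at 0.91 to 0.98. The 3 genes lie on chromosomes 15 and 3, and reads shared between Myh7 and Myh6 could raise the first of these values.

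Fast adult myosin ran the other way. The Myh1 row correlated with Myh7 at r = -0.65 (permutation p = 0.00052, adjusted p = 0.00078) and rho = -0.71 (permutation p = 0.00017, adjusted p = 0.000283). Against Myh6 it was r = -0.74 and rho = -0.72, and against Myh7b r = -0.77 and rho = -0.75 (adjusted permutation p for r = 3e-05 for both). Centred on group means the 3 values of r were -0.56, -0.68 and -0.73, and r with Myh7 was negative within each of the 4 groups (-0.69, -0.47, -0.66 and -0.63). Without the 2 farthest libraries r with Myh7 was -0.64. On log2 CPM of edgeR in place of FPKM, r with Myh7 was -0.38 (permutation p = 0.0709). Over the 2 other settings tried with all libraries kept, r ran from -0.70 to -0.44 with Myh6 and from -0.77 to -0.63 with Myh7b. In the 6 libraries with least Myh7 the Myh1 row was at 3022 to 4121 FPKM, and in the 6 with most at 1689 to 3027 FPKM, as the plot of libraries in order of Myh7 shows.

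**Figure D4:**
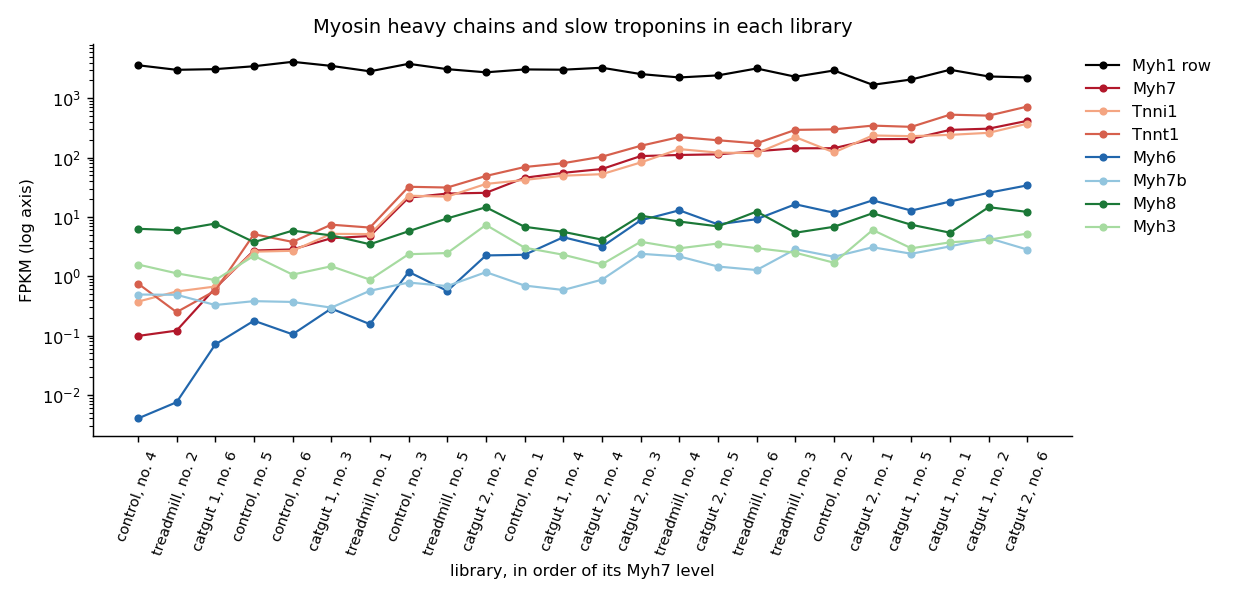
FPKM (log axis) of the 6 listed members and of the slow troponins Tnni1 and Tnnt1 in all 24 libraries, ordered by Myh7 from left to right. Myh6, Tnni1 and Tnnt1 climb with Myh7 over several orders of magnitude, and libraries of all 4 groups are mixed along the order, with no catgut 2 library among the 9 lowest.

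The developmental chains joined the slow end, less closely. Myh3 correlated with Myh7 at r = 0.71 (rho = 0.72), with Myh6 at r = 0.69 (rho = 0.76) and with Myh8 at r = 0.71 (rho = 0.65), with adjusted permutation p for r of 0.000279, 0.000506 and 0.000275. Within groups, r of Myh3 with Myh7 was 0.98 in catgut 1, 0.89 in treadmill, 0.42 in control and 0.06 in catgut 2, the group with most Myh3. That of Myh3 with Myh8 was 0.96 in catgut 2, 0.80 in treadmill, 0.37 in catgut 1 and -0.0681 in control. Myh7 with Myh8 was weaker, at r = 0.46 (adjusted permutation p = 0.0256) and rho = 0.42.

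The genes most like Myh7 were the slow troponins. Of 9781 genes with a mean of at least 1 FPKM, the 3 with the highest Spearman rho with Myh7 over the 24 libraries were Tnnt1, Tnni1 and Tnnc1 (rho = 0.99 each), which encode slow troponin T, slow troponin I and the troponin C of slow and cardiac muscle. The median level of Tnnt1 was 92.1 FPKM (0.248 to 726), and that of Tnni1 was 51.1 FPKM (0.373 to 374). The lowest rho was that of Dipk1a (-0.85). For the Myh1 row the highest were Ryk (0.92), a receptor for Wnt ligands, Zbtb18 (0.89), a transcriptional repressor, and Klhl33 (0.89), and the lowest was LOC102550325 (-0.91). These values are a description over libraries that share tissue and processing.

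Most transcripts for partner proteins of slow and fast fibres lined up with those of their chains. Of 12 slow-fibre genes tested (of 13 listed), 8 had a rho with Myh7 over 0.9, among them Myl2 and Myl3 (slow light chains, 0.96 and 0.94), Atp2a2 (slow calcium pump, 0.97), Tpm3 (slow tropomyosin, 0.94) and Myoz2 (Z-disc protein of slow fibres, 0.97). Exceptions were Mybpc1, slow myosin-binding protein C (rho = -0.21), and Pln, phospholamban (0.16). All 11 fast-fibre genes tested (of 12 listed) had a rho below 0 with Myh7 and above 0 with the Myh1 row. The values for Tpm1, the alpha-tropomyosin gene, were -0.77 and 0.80, those for Actn3, the fast-fibre alpha-actinin, were -0.60 and 0.70, and those for Pvalb, parvalbumin, were -0.71 and 0.75. The weakest of the fast list were Tnni2, at -0.16 and 0.20, and Mylpf, at -0.40 and 0.36.

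Neither partner list was called in the group comparisons. Of the 12 slow genes 0 were called in any of the 5 comparisons, in which 0.00677% to 0.514% of all genes were called. At such shares a list of this size would seldom hold a call. The median log2 fold change of the slow list was 1.02 in treadmill against control and 0.94 in catgut 2 against treadmill, beside 0.00 for all genes in each. In treadmill against control 1 of 12 had an unadjusted p under 0.05 (9.12% of all genes). That gene, Mybpc1, was lower (-0.24), and the other 11 values were above 0. In trained against control the median of the list was 1.497. There 2 of 12, Casq2 and Pln, both higher, had an unadjusted p under 0.05, a share near the 14.1% of all genes. Of the 11 fast genes 0 were called, beside the same shares of all genes. All 11 values were below 0 in catgut 2 against treadmill (median -0.35). There 5 of 11 had an unadjusted p under 0.05, beside 10.7% of all genes. Those were Myl1, Tnnt3, Tpm1, Mybpc2 and Actn3. In trained against control, 2 of 11 did (14.1% of all genes), Tnnt3 and Tpm1, the latter at -0.56 on the log2 scale (adjusted p = 0.114). Most genes of each list moved together across rats, so their values and counts are not separate observations.

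Lists around the thick filament held no call. Of 12 genes of the thick filament and of myosin folding, 0 were called in the 5 comparisons, in which 0.00677% to 0.514% of all genes were called. The lowest unadjusted p values were for Hsp90aa1, the inducible chaperone that folds myosin (log2 fold change 1.39, adjusted p = 0.0943, trained against control), and Fbxo32, the muscle-wasting ubiquitin ligase atrogin-1 (-1.26 in catgut 2 against treadmill, adjusted p = 0.140). Of 12 regeneration and denervation genes 0 were called, beside the same shares of all genes. Their median in catgut 2 against treadmill, where Myh3 was highest, was 0.07, with 7 values above 0 and 5 below. Among them Myl4, the embryonic and atrial light chain, was at 1.12 (SE 0.58, adjusted p = 0.523) and Myf5, a myogenic factor of satellite cells, at 0.51 (SE 0.19, adjusted p = 0.352). Pax7, also a satellite cell factor, went the other way, at -0.68 (SE 0.32, adjusted p = 0.467). Of the 3 other class II myosins that were tested, Myh10, a non-muscle chain, had a rho of 0.91 with Myh7 (0.911 to 4.84 FPKM), while Myh14 was at 0.22.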

How the data were processed

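Poly(A) RNA of quadriceps was sequenced from 24 rats, 6 in each of 4 groups, and the groups were taken from the sample labels. The authors aligned reads with HISAT2 2.0 and assembled and quantified transcripts with StringTie 1.3.0, as the submitters' processing notes name them; the genome build was not given in the sources used here. The authors deposited 1 table with FPKM and count columns per library. The deposited counts were whole numbers whose commonest values above 0 were 4 and 8, so 1 count may be less than a fragment, and 12 counts were taken as the limit of detection. An alternative divided them by 4.

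The 8 members, the gene lists and the tests were chosen with earlier results of these data known. Genes named in the text were the members, list genes, and the genes most and least like a member by Spearman rho. Placeholder clone names were left out of that search. A list of regulators was tested but is not reported here. Where a symbol had several rows, the row with the highest mean FPKM was used. Myh2 and Myh4 had no row, so the shares and correlations planned for them could not be computed, and the share compares Myh7 with the Myh1 row.

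Counts were tested with edgeR 4.0.16 (TMM scaling, quasi-likelihood F test, Benjamini-Hochberg adjustment over 14772 genes with a mean of at least 0.1 FPKM). Each pair of groups was fitted alone; trained against control came from 1 fit of all groups. SE is the log2 fold change over the root of F, and intervals are 95%. Exact permutations enumerated all 924 splits of 12 libraries (smallest p 0.0022). Correlations used log2(FPKM + 1) and 100000 permutations. Same-numbered libraries of 2 groups did not deviate together (r from -0.49 to 0.28), so the number was not taken to pair them. The scripts were tested on simulated data. Alternatives were no filter, a mean of at least 1 FPKM, median-ratio scaling, DESeq2 1.42.0, limma 3.58.1 on log2(FPKM + 1) and with 0.1 added, 1 fit over 4 groups, a replicate block, a Y-linked covariate, counts divided by 4 and leaving out each library. A slow-list covariate, leaving out the 2 libraries with Alb over 100 FPKM, and shares of counts were added after seeing the data.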

Additional observations from a re-analysis of the deposited data

Results flagged for a closer look

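The 6 members and the Myh7 share, in 4 groups, made 28 sets of 6 libraries. In 6 sets the highest or lowest library had a gap to the next of more than 0.625 of the whole range. This limit flags about 1 group in 20 by chance only where values are normally distributed. It was applied to untransformed values, which are skewed for Myh7 and Myh6, so chance can flag more. On the log2(FPKM + 1) scale the control values of Myh7 ran from 0.14 to 7.18, with 5.55 next to the highest. Control library 2 accounts for 4 of the 6 flags. Its Myh7 was 144 FPKM beside a next value of 45.7 FPKM, its Myh6 11.8 FPKM beside 2.30 FPKM, its Myh7b 2.13 FPKM beside 0.782 FPKM, and its Myh7 share 4.67% beside 1.47%. These are not 4 separate signs, since the genes move together. The same library held 135 FPKM of Alb, and the part of that in its myosin values was not tested. Myh8 was 14.6 FPKM in catgut 1 library 2, beside 7.73 FPKM in the next, and 3.76 FPKM in control library 5, beside 5.73 FPKM in the next lowest.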

How the results depend on the processing

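Under 166 repeats of the 6 counts of called members with other settings or without a library, the count stayed at 0, and the lowest adjusted p of any member was 0.0719 (the Myh1 row, trained against control, DESeq2). Of 786 repeats of the 30 log2 fold changes of members, 743 kept the direction and 43 turned it; 0 passed the threshold. The Myh1 row in catgut 1 against treadmill, near 0 in the report, was -0.0052 at a mean of at least 1 FPKM, -0.0028 with a replicate block, -0.0363 without the 2 Alb libraries and -0.0477 to 0.0939 without each library. Myh8 there was 0.0222 and 0.0296 in limma with 1 and 0.1 added, 0.0523 with the Y-linked covariate and -0.32 to 0.19 without each library, and Myh7b -0.0065 to 0.79. In catgut 2 against catgut 1, leaving out each library gave -0.46 to 0.53 for Myh7, -0.13 to 0.53 for Myh7b, -0.28 to 0.81 for Myh6 and -0.83 to 2.33 percentage points for the Myh7 share. Myh7 there reached 1.27 and 1.49 in limma with 1 and 0.1 added. In catgut 2 against treadmill Myh7 and Myh6 were 2.21 and 2.57 with the block, and limma with 0.1 added gave 2.49 for Myh7. In treadmill against control the block gave 2.73 and 2.58, and in trained against control 2.59 and 3.06.

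With the slow-list level as a covariate, which removes what a member shares with slow fibres by construction, Myh7, Myh6 and Myh3 were -0.42, -0.59 and -0.26 in treadmill against control. Myh7b and Myh3 were -0.19 and -0.0073 in catgut 1 against treadmill. Myh7, Myh7b and Myh6 were -0.0276, -0.13 and -0.0774 in catgut 2 against treadmill, -0.0233, -0.0874 and -0.0529 in catgut 2 against catgut 1, and -0.35, -0.0067 and -0.20 in trained against control, where Myh3 was -0.0466. In that fit Myh3 was 0.67 (adjusted p = 0.393) in catgut 2 against treadmill.

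With the replicate number as a block, the Myh7 share differed by 1.42, 2.68, 3.73 and 1.05 percentage points (exact sign-flip p = 0.4375, 0.4375, 0.281 and 0.719) and Myh3 in catgut 2 against treadmill by 1.04 (adjusted p = 0.643). The block changed no call of a member. It moved the genes called from 35 to 3 in catgut 2 against treadmill, and 2, 0, 1 and 1 of 6 libraries in the 4 pairs of groups correlated best with their own number. On log2 CPM, r of the Myh1 row was -0.38 with Myh7 and -0.38 with Myh8 (permutation p = 0.0709 and 0.0643). Counts over all genes moved more: over the settings they ran from 3 to 112 (8 in the report) in treadmill against control, 0 to 139 (7) in catgut 1 against treadmill, 3 to 309 (35) in catgut 2 against treadmill, 0 to 8 (1) in catgut 2 against catgut 1, 26 to 322 (76) in trained against control and 34 to 483 (56) among the 4 groups, with DESeq2 the highest in each. Without 1 library they ran, in the same order, from 0 (without control 4) to 12 (control 2), 2 (treadmill 3 or 6) to 6, 6 (treadmill 1) to 30, 0 (catgut 2 library 3) to 2 (catgut 1 library 5), 35 (control 6) to 118 (catgut 2 library 4) and 19 (treadmill 6) to 128 (control 2). The depth of 45945938 counts or more leaves Myh6 in 2 libraries at the limit of detection; the other members were above it in all 24.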
